A study of Arabidopsis thaliana with 9 samples.

Results

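This report follows EXPA18, which encodes an expansin, and a set of class III peroxidase genes known from root hairs, in Arabidopsis thaliana roots fixed on the ground and during a jet flight. The set was given as a list of 7 genes, EXPA18 and 6 peroxidase genes, and it was restricted to those with a probe set assigned to a single gene. Of the 7, 5 were measured among 16548 genes tested, namely EXPA18, AT4G26010, AT1G30870, AT3G49960 and AT1G34510. The peroxidase genes AT5G67400 and AT5G22410 had no probe set of their own in the naming table and were not analysed here. By the gene table, EXPA18, AT1G30870 and AT1G34510 lie on chromosome 1, AT3G49960 on chromosome 3 and AT4G26010 on chromosome 4.

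All samples were whole roots of 10-day-old seedlings of the Wassilewskija (WS) background carrying pCaMV35S:14-3-3κ:GFP, a 14-3-3 protein fused to green fluorescent protein and overexpressed from a viral promoter that is active in most tissues, so the ground roots carried the transgene too. Seedlings grown in continuous light were sealed in tubes that hold the fixative RNAlater, and the tubes went up with an F-104 Starfighter jet on its second such flight or stayed on the ground. Fixative was released in the first-actuated tube straight after microgravity, in the last-actuated tube once the jet had flown level for some 1.5 min, and in the ground tube at a time within the flight. The flight tubes went through a climb at 4 g of roughly 30 s and about 10 s of microgravity. A short spell of hyper-g came at the pull-up, and the labels do not say whether the first-actuated roots were fixed before it. Each of the 3 tubes gave 3 replicates, 9 arrays in all. A condition therefore cannot be told apart from its tube, and p-values cover the spread among roots sharing a tube and nothing more. The 14-3-3κ gene had no single-gene probe set, so its overexpression could not be checked.

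Root hairs are tubular outgrowths of root epidermal cells that grow at their tips and take up water and minerals. Expansins are secreted proteins that loosen the cell wall without cutting its polymers, and EXPA18 and its relative EXPA7 are known as root hair expansins. Class III peroxidases are secreted haem enzymes that use hydrogen peroxide to cross-link wall proteins and phenolics, which stiffens the wall, and they can also form reactive oxygen species, which loosens it. Levels below are the authors' normalised log2 expression values, in which 1 unit is a doubling. A gene was called when limma's p-value, adjusted by the Benjamini-Hochberg method over all genes tested, was under 0.05. In whole roots, fewer cells of a type and less RNA per cell cannot be told apart.

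Arrays of one tube correlated across genes at 0.976 to 0.984 on the ground, 0.990 to 0.991 in the first-actuated and 0.984 to 0.989 in the last-actuated tube, lowest on the ground. None of 23 listed markers of endodermis, stele, and root cap or tip had a single-gene probe set in the naming table, so the make-up of the roots could not be checked with them. That table named no gene for 20927 of 38408 probe sets. Of 12 listed shoot genes of photosynthesis, 5 were measured and none was at 0. Their summed level, as the log2 of the sum of linear values, was 7.24 to 7.69 on the ground, 7.16 to 7.30 in the first-actuated and 7.07 to 7.12 in the last-actuated roots. LHB1B2, PSAE-1 and PSBY of these fell in first-actuated roots, by 0.91, 1.30 and 0.83 on the log2 scale, while RCA, the activase of Rubisco, changed by 0.036 in value and was not called. Leaving out ground replicate 3, or a single first-actuated array whichever it was, ended each of these 3 calls, and leaving out ground replicate 1 ended those of LHB1B2 and PSBY (adjusted p = 0.0601 to 0.111). LHB1B2 and PSAE-1 fell in last-actuated roots too, by 1.22 and 1.53. The LHB1B2 call there stood in 5 of the 9 fits without 1 array, ending with the loss of ground replicate 1 or 3 or of last-actuated replicate 1 or 3 (adjusted p = 0.0545 to 0.0674). The PSAE-1 call stood in 2 of 9, those lacking ground replicate 1 or 2 (0.0604 to 0.146 in the rest). The part of these shoot genes in the results below was not tested.

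The first comparison asked how roots fixed straight after microgravity differed from ground roots. EXPA18 and the peroxidase gene AT4G26010 rose about equally, each to close to double its ground level. The levels of the peroxidase genes AT1G30870, AT3G49960 and AT1G34510 did not pass the test.

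EXPA18 stood at 4.08, 4.49 and 4.04 in ground replicates 1, 2 and 3, and at 5.10, 4.87 and 5.50 in the first-actuated ones. All 3 first-actuated values lay above all 3 ground values, with a gap of 0.39 between the nearest of them. The mean level went from 4.20 ± 0.25 to 5.16 ± 0.32 (SD, n = 3), a log2 change of 0.96 ± 0.19 (SE) and a 1.94-fold rise with a 95% interval of 0.53 to 1.38 in log2 (limma, adjusted p = 0.0203). That call did not stand in every fit. It was lost without ground replicate 1 (adjusted p = 0.0730), ground replicate 3 (0.0861), first-actuated replicate 1 (0.0690) or first-actuated replicate 3 (0.0831), and with only the 2 tubes in the fit (0.0665). In these fits, in that order, the log2 change was 0.90, 0.87, 0.98, 0.79 and 0.96. Calls over all genes were 558, 449, 423, 384 and 419 there, against 776 in the main fit.

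AT4G26010 stood at 5.38, 5.79 and 5.78 on the ground and at 6.84, 6.37 and 6.94 in the first-actuated roots. The tubes did not overlap here either, and the gap was wider, at 0.58. The mean level went from 5.65 ± 0.23 to 6.72 ± 0.30 (SD, n = 3), a log2 change of 1.06 ± 0.16 (SE), which is a 2.09-fold rise with a 95% interval of 0.70 to 1.43 in log2 (limma, adjusted p = 0.00529). This call was kept in all 9 fits that left out 1 array, with adjusted p from 0.00363 to 0.0323.

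AT1G30870 showed 1.64, 2.59 and 2.27 on the ground and 2.80, 2.33 and 2.56 in the first-actuated roots, so the tubes overlapped. Its log2 change was 0.40, with a 95% interval of -0.091 to 0.89 (limma, adjusted p = 0.418). Over the 9 fits that left out 1 array the change ran from 0.14, without ground replicate 1, its low point, to 0.61, without ground replicate 2, and it was called in none of them. Its mean over all arrays, 2.31, lay near the median of all gene means, 2.15, where no detection call was available to place it above background.

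AT3G49960 was nearly flat, at 4.82, 4.95 and 4.99 on the ground and 5.08, 4.48 and 5.12 in the first-actuated roots. Its log2 change was -0.027 with a 95% interval of -0.41 to 0.35 (limma, adjusted p = 0.970), an interval that stops well short of the change of AT4G26010. First-actuated replicate 2 was the low array, and without it the change was 0.18.

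AT1G34510 was the dimmest of the 5, at 1.17, 1.41 and 1.18 on the ground and 1.20, 1.35 and 1.41 in the first-actuated roots. Its log2 change was 0.063 with a 95% interval of -0.20 to 0.33 (limma, adjusted p = 0.862). These levels fell below the lower quartile of gene means, 1.41 on this scale, so a change of the transcript could have gone unmeasured.

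Counted together, 2 of the 5 measured genes rose and 0 fell, where 3.02% of all genes rose and 4.69% were called in either direction (limma). The median log2 change of the 5 was 0.40, beside 0.0098 over all genes. The genes were chosen with earlier results of these data known, so count and median are descriptions and no test of the set. With 3 arrays against 3, an exact two-sided permutation test cannot give a p below 0.1, and both EXPA18 and AT4G26010 gave that value.

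**Figure D1:**
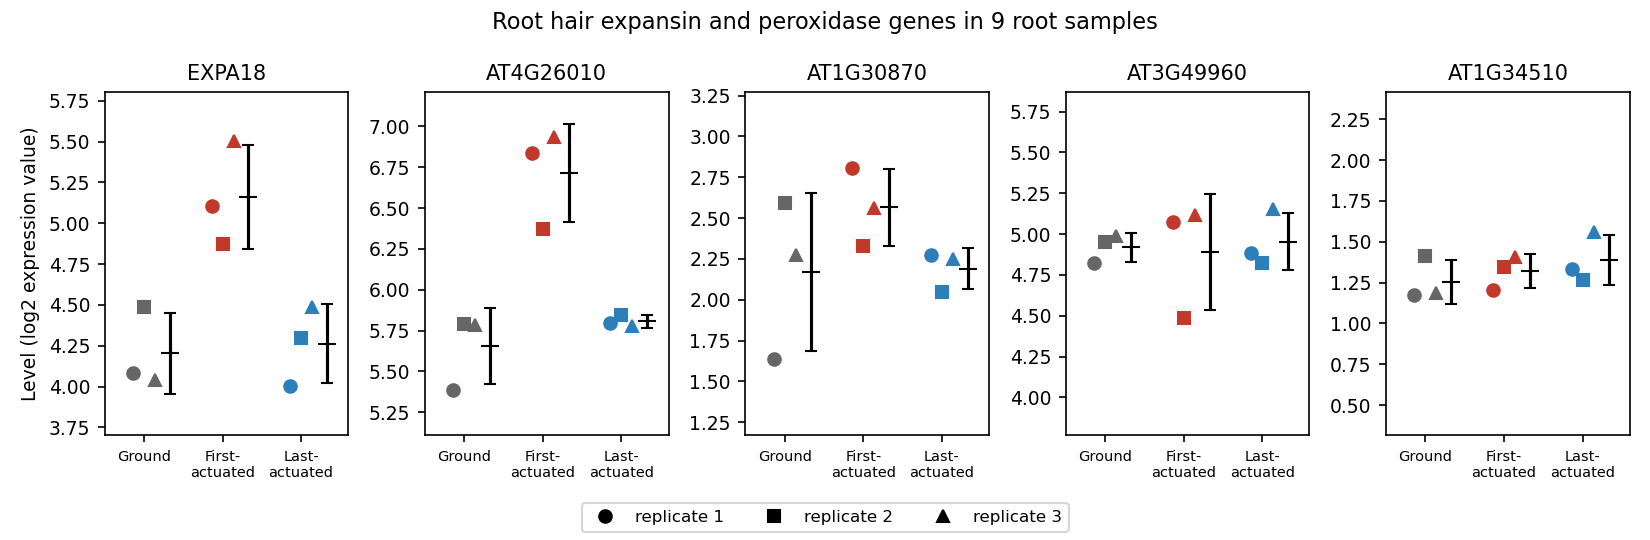
Level of each measured root hair expansin or peroxidase gene (log2 expression value, vertical axis of equal span in each panel) in the 3 replicates of each tube, with the mean and SD beside the points. EXPA18 and AT4G26010 stand higher in all 3 first-actuated replicates than in any other array, and the other genes overlap between first-actuated and ground roots.

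The second comparison set roots fixed later, in level flight, against the ground roots. None of the 5 genes was called, and EXPA18 and AT4G26010 stood at close to their ground levels.

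EXPA18 was at 4.00, 4.29 and 4.49 in last-actuated replicates 1, 2 and 3, within the span of the ground arrays apart from the lowest value. The log2 change from the ground was 0.059, with a 95% interval of -0.37 to 0.49 (limma, adjusted p = 0.937). AT4G26010 was at 5.79, 5.85 and 5.78, the tightest group of the 3 tubes for this gene (5.81 ± 0.038, SD, n = 3). Its log2 change was 0.15, with an interval of -0.21 to 0.52 (limma, adjusted p = 0.766). Both upper bounds lay below the log2 changes that the same genes had in first-actuated roots.

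AT1G30870 was at 2.27, 2.05 and 2.25, AT3G49960 at 4.89, 4.82 and 5.16, and AT1G34510 at 1.33, 1.27 and 1.56. All of these overlapped the ground arrays, with log2 changes of 0.023, 0.035 and 0.13. By limma 0 of the 5 genes passed, with 0 at an unadjusted p under 0.05, where 0.912% of all genes were called. The 5 changes ran from 0.023 to 0.15 with a median of 0.059, beside 0.026 over all genes. The first and the second comparison share the ground arrays, so their values are not independent.

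The third comparison set the flight tubes against each other, which tests whether the genes differed between them. EXPA18 and AT4G26010 were lower in the last-actuated roots and AT1G30870, AT3G49960 and AT1G34510 were not called.

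EXPA18 fell by 0.90 on the log2 scale from first-actuated to last-actuated roots, from 5.16 to 4.26 ± 0.24 (SD, n = 3), with a 95% interval of -1.33 to -0.47 (limma, adjusted p = 0.0454). No last-actuated array reached the lowest first-actuated one. The call stood in 1 of the 9 fits that left out 1 array, the one without ground replicate 2, and in the other 8 the adjusted p was 0.0515 to 0.154. Over the 9 fits the log2 difference ran from -1.04 to -0.73. Calls over all genes ran from 100 to 495 there, against 371 in the main fit. The EXPA18 call was also lost with the replicate block (adjusted p = 0.0630), with all probe sets tested (0.0816) and with only the 2 tubes in the fit (0.0696).

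AT4G26010 fell by 0.91, from 6.72 to 5.81, with a 95% interval of -1.27 to -0.54 (limma, adjusted p = 0.0216). Its 3 last-actuated arrays lay below its 3 first-actuated arrays, with a gap of 0.52. The call was lost without first-actuated replicate 1 (adjusted p = 0.0984) or 3 (0.0941), or last-actuated replicate 1 (0.0780), 2 (0.0726) or 3 (0.0801), and stood without first-actuated replicate 2 or any 1 ground array. In the fits that lost it, in that order, the log2 difference was -0.85, -0.80, -0.90, -0.93 and -0.89. Calls over all genes were 118, 100, 179, 178 and 176 there, against 371 in the main fit and 133 without first-actuated replicate 2.

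AT1G30870 had a log2 difference of -0.38, with an interval of -0.87 to 0.11 (limma, adjusted p = 0.528). Its nearest arrays were 0.059 apart without overlap, for which the exact permutation test gave 0.1, the least it can give. AT3G49960 and AT1G34510 had differences of 0.062 and 0.069. In all, 0 rose and 2 of the 5 fell, where 1.26% of all genes fell and 2.24% were called in either direction. Without first-actuated replicate 1 or 3, or without any 1 last-actuated array, 0 of the 5 were called, and 1 was called without first-actuated replicate 2 or ground replicate 1 or 3. A moderated F test over the 3 tubes called EXPA18 (limma, adjusted p = 0.0282) and AT4G26010 (0.00956), 2 of the 5, against 4.45% of all genes. That count dropped to 1 when ground replicate 1, ground replicate 3, last-actuated replicate 1 or last-actuated replicate 2 was left out, and to 0 without first-actuated replicate 1 or 3.

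**Figure D2:**
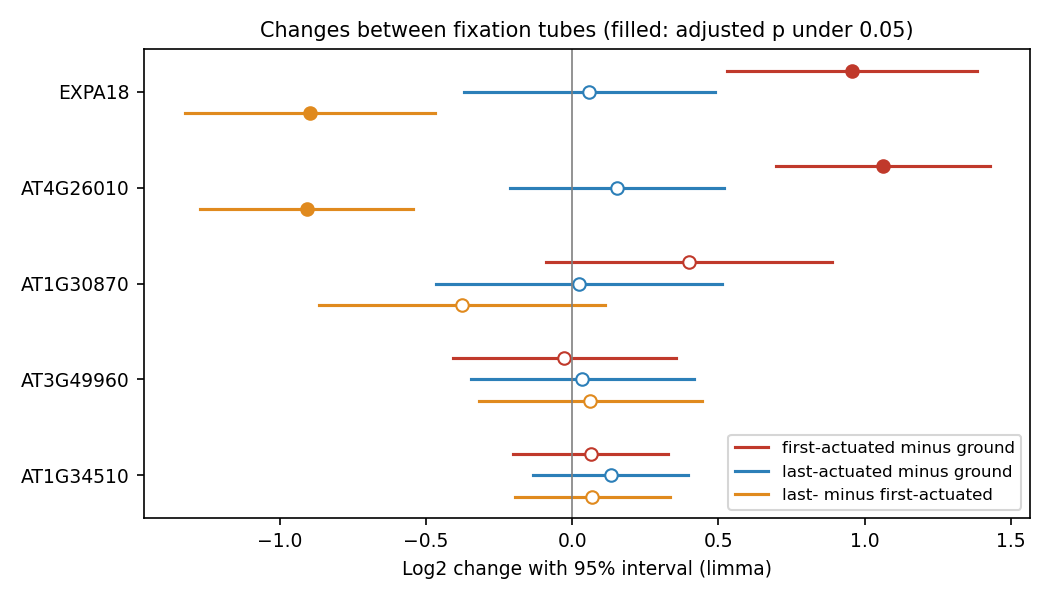
Log2 change of each gene (horizontal axis, with its 95% interval from limma) between first-actuated and ground, last-actuated and ground, and last-actuated and first-actuated roots, with filled points at an adjusted p under 0.05. EXPA18 and AT4G26010 lie near 1 for first-actuated minus ground and near -0.9 for last- minus first-actuated, and every last-actuated minus ground interval holds 0.

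The 5 genes were also compared by the shape of their profiles. The measure was the root mean square difference, over the 9 arrays, between deviations from each gene's own mean level, where 0 is an identical shape. EXPA18 and AT4G26010 were the closest pair at 0.19, with AT3G49960 and AT1G34510 at 0.20, a pair with little change to share. EXPA18 and AT3G49960 differed by 0.49, and AT4G26010 and AT1G34510 by 0.51. These are descriptions, and EXPA18 and AT4G26010 are alike in part through the first-actuated rise already given.

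Among genes at or above the median gene mean, AT3G15518, AT1G02810 and AT5G62460 were the 3 nearest to EXPA18 over the 9 arrays, at 0.16 each. AT1G02810 was at 3.81, 4.11 and 3.96 on the ground, 5.03, 4.77 and 4.98 in the first-actuated and 3.92, 4.12 and 4.09 in the last-actuated roots. It was also the gene nearest to AT4G26010, at 0.12, followed by AT2G43560 and AT5G57625, at 0.13 each. AT5G57625 was at 6.69 to 7.38 on the ground, 7.72 to 8.29 in the first-actuated and 7.03 to 7.35 in the last-actuated roots, with its lowest first-actuated array again replicate 2. These genes were picked for their likeness over the same 9 arrays, so a shared rise or low array comes with the choice and is no further result.

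Within the ground and first-actuated tubes, several of the 5 genes were low on the same array. First-actuated replicate 2 was the lowest of its tube for 4 of the 5 genes, the exception being AT1G34510, and for 10 of 12 other measured root hair genes of the cell wall. Over all genes it was the lowest in 29.9%. Its median deviation from the tube's mean was -0.29 over the 5 genes and -0.25 over the 12, against 0 over all genes. Ground replicate 1 was the lowest of its tube for 4 of the 5 genes, for 6 of the 12 and for 36.9% of all genes. In the last-actuated tube no replicate was the lowest for more than 3 of the 5, and the 12 cell wall genes went another way. Replicate 2 was the lowest there for 3 of the 5, 3 of the 12 and 31.5% of all genes. Replicate 3 was the lowest for 1 of the 5, 7 of the 12 and 28.3% of all genes. Its median deviation was 0.17 over the 5 and -0.086 over the 12. The sharing of low arrays was looked for after the values had been seen and was not tested.

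Taking AT3G49960 as a reading of the same arrays, the log2 difference of AT4G26010 minus AT3G49960 was 0.56 to 0.84 on the ground, 1.76 to 1.89 in the first-actuated and 0.62 to 1.03 in the last-actuated roots. First-actuated replicate 2, low for both genes, was the highest of its tube in this difference. The last-actuated range overlapped that of the ground. The zero of such a difference between probe sets has no meaning, and the pair was picked after its values were seen, so the shift restates the changes above and has no test.

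Other genes known from root hairs were listed by locus in groups of regulators, growth signalling, and cell wall. Of 76 listed genes 18 were measured. These were 4 of 20 regulators, 2 of 21 growth signalling genes and 12 of 35 cell wall genes, so most of the list was not read. Of 67 other class III peroxidase genes 60 were measured, so the naming table covered the lists unevenly and the 18 may not stand for the 76. In first-actuated roots 1 of the 18 rose and 0 fell against the ground, beside the 3.02% of all genes that rose. At an unadjusted p under 0.05 (limma) 6 of the 18 passed, beside 16.9% of all genes. The median log2 change of the 18 was 0.0052, with 9 positive and 9 negative.

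The gene that rose was AT1G26250 of the cell wall group, from 6.84 ± 0.20 to 7.39 ± 0.065 (SD, n = 3), by 0.55 (limma, adjusted p = 0.0348). In last-actuated roots it was at 7.33 ± 0.12, with a log2 change of 0.48 (adjusted p = 0.123) and all 3 arrays above the ground arrays. Its call survived the loss of ground replicate 3 or of last-actuated replicate 1, but not that of any 1 of the other arrays (adjusted p = 0.0538 to 0.121).

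EXPA7, the other root hair expansin, went the other way in value. It was at 4.65, 5.04 and 4.94 on the ground, 4.38, 3.86 and 4.49 in the first-actuated, and 4.74, 4.58 and 4.73 in the last-actuated roots. The first-actuated arrays were all below the ground arrays, with a log2 change of -0.63 that did not pass (limma, adjusted p = 0.0685). The log2 difference of EXPA18 minus EXPA7 was -0.90 to -0.55 on the ground, 0.73 to 1.02 in the first-actuated and -0.73 to -0.24 in the last-actuated roots. All 3 first-actuated arrays stood above all others in that difference, which was chosen after the values were seen and has no test.

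Among the regulators, all 4 measured members had negative log2 changes in first-actuated roots and none was called (limma, 2 at an unadjusted p under 0.05). JKD, a zinc finger protein that helps set hair cell position, had a change of -0.38 (adjusted p = 0.115), and TRY, an R3 MYB protein that acts in epidermal cell patterning, had one of -0.35 (adjusted p = 0.292). In growth signalling, FER, a receptor kinase of hair growth, had a change of 0.084 (adjusted p = 0.860). In last-actuated roots 0 of the 18 root hair genes passed against the ground, where 0.912% of all genes did. At an unadjusted p under 0.05 (limma) 3 of the 18 passed, beside 12.4% of all genes, and the median change was -0.042. The smallest p was that of AT1G26240, a cell wall gene with a log2 change of 1.08 (limma, adjusted p = 0.0883). Between the flight tubes 0 of the 18 passed, beside 2.24% of all genes, with 2 at an unadjusted p under 0.05 (limma), beside 13.4%. The smallest p was that of AT3G54580, also of the cell wall group, whose log2 difference was -1.25 (adjusted p = 0.0634). Its uncalled changes from the ground were 0.83 in first-actuated (limma, adjusted p = 0.174) and -0.43 in last-actuated roots (0.618). Ground replicate 2, at 6.44, lay among its first-actuated arrays, at 6.38, 6.44 and 6.66.

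**Figure D3:**
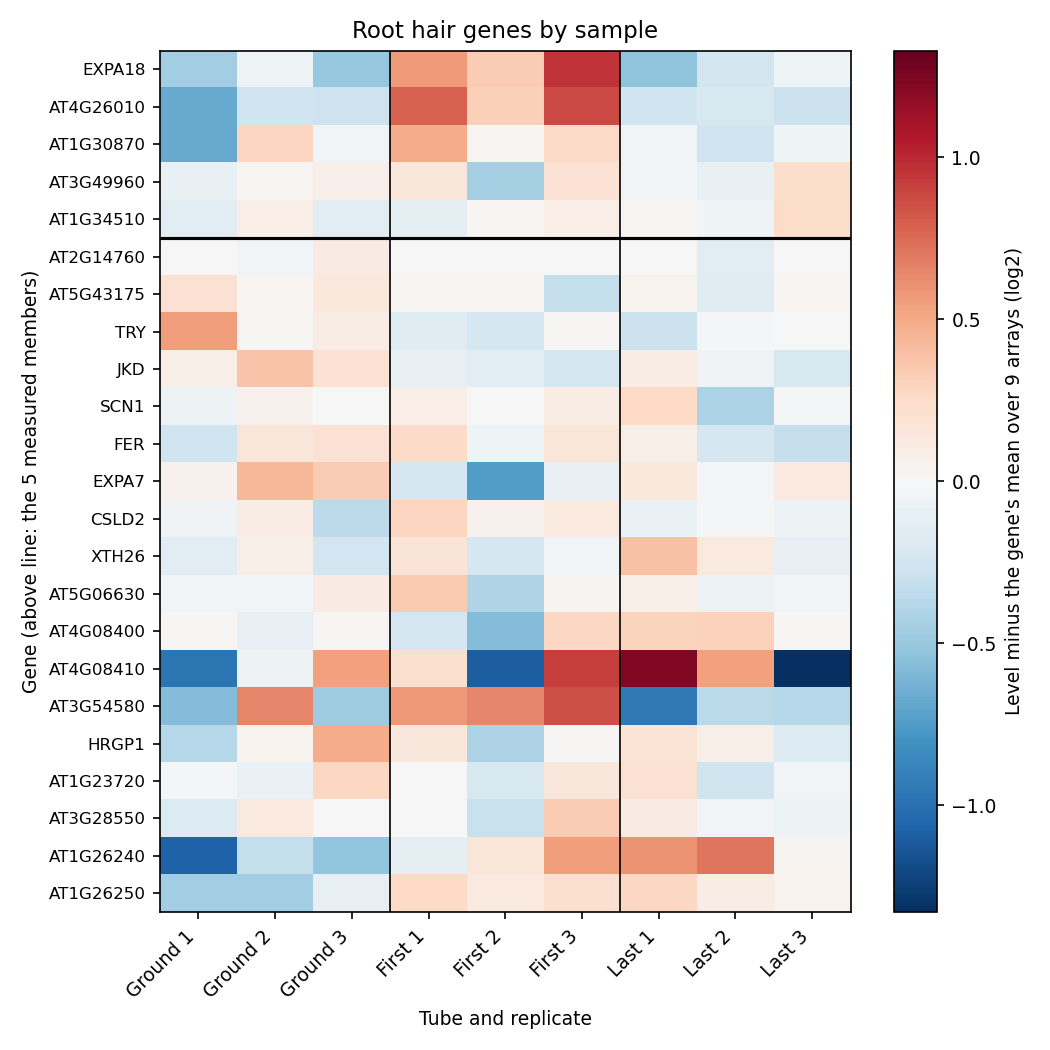
Level of each root hair gene minus its mean over the 9 arrays (colour, log2), with the 5 expansin and peroxidase genes above the line and 18 other root hair genes below it, by tube and replicate. The first-actuated columns are red for EXPA18 and AT4G26010, while the genes below the line show no shared first-actuated colour and first-actuated replicate 2 is the lowest of its tube for 13 of those 18.

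The wider families were set beside the 5 genes. Of 18 other measured expansin genes, which include EXPA7, 0 were called in first-actuated roots, beside 4.69% of all genes, and 7 had an unadjusted p under 0.05 (limma), beside 16.9%. Their median log2 change was 0.069 and their range -0.77 to 0.59, below the 0.96 of EXPA18 throughout. In last-actuated roots 0 were called, beside 0.912% of all genes, with 5 at an unadjusted p under 0.05 (limma), beside 12.4%, and EXPA9 came nearest at -0.69 (limma, adjusted p = 0.0702). Between the flight tubes 0 were called, beside 2.24% of all genes, with 2 at an unadjusted p under 0.05 (limma), beside 13.4%, and EXPA4 had the smallest p, at a difference of 0.43 (adjusted p = 0.272).

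Of 60 other measured class III peroxidase genes, 3 rose and 3 fell in first-actuated roots, where 4.69% of all genes were called and 3.02% rose, and the median change was 0.0092. At an unadjusted p under 0.05 (limma) 14 of the 60 passed, beside 16.9% of all genes. The changes ran from -1.40 to 1.02, with 31 positive and 29 negative. AT5G24070 had the highest, 1.02, and was not called (limma, adjusted p = 0.115). Its difference between the flight tubes was -1.19, also not called (limma, adjusted p = 0.0968). AT1G14550 rose by 0.91, AT5G15180 by 0.59 and AT2G39040 by 0.49, while AT1G49570 fell by 1.40, AT2G22420 by 0.95 and AT5G19890 by 0.88 (limma, adjusted p from 6.18e-04 to 0.0443). The calls of AT1G49570 and AT5G19890 stood in all 9 fits without 1 array. Those of AT1G14550, AT5G15180, AT2G22420 and AT2G39040 were lost in 3, 4, 6 and 7 of the 9, each time including those without ground replicate 1 or first-actuated replicate 1 or 3. The further losses were without ground replicate 2 for AT5G15180, ground replicate 2, first-actuated replicate 2 or last-actuated replicate 1 for AT2G22420, and ground replicate 2 or 3, first-actuated replicate 2 or last-actuated replicate 3 for AT2G39040 (adjusted p of all losses 0.0505 to 0.154). Where AT4G26010 was high AT1G49570 was low, at 5.14 ± 0.096 on the ground, 3.75 ± 0.011 in the first-actuated and 5.10 ± 0.33 in the last-actuated roots (SD, n = 3). It was the 1 other peroxidase gene called between the flight tubes, where 2.24% of all genes were, with a rise of 1.36 (limma, adjusted p = 0.00350). In last-actuated roots AT5G19890 was the 1 of the 60 called against the ground, beside 0.912% of all genes, and it fell by 0.52 (limma, adjusted p = 0.0431), a call kept without ground replicate 2 and lost without any 1 of the other arrays (0.0545 to 0.140). Its 3 last-actuated arrays held the same value, 2.9549 (SD 0), which lowers the spread that all its tests use.

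**Figure D4:**
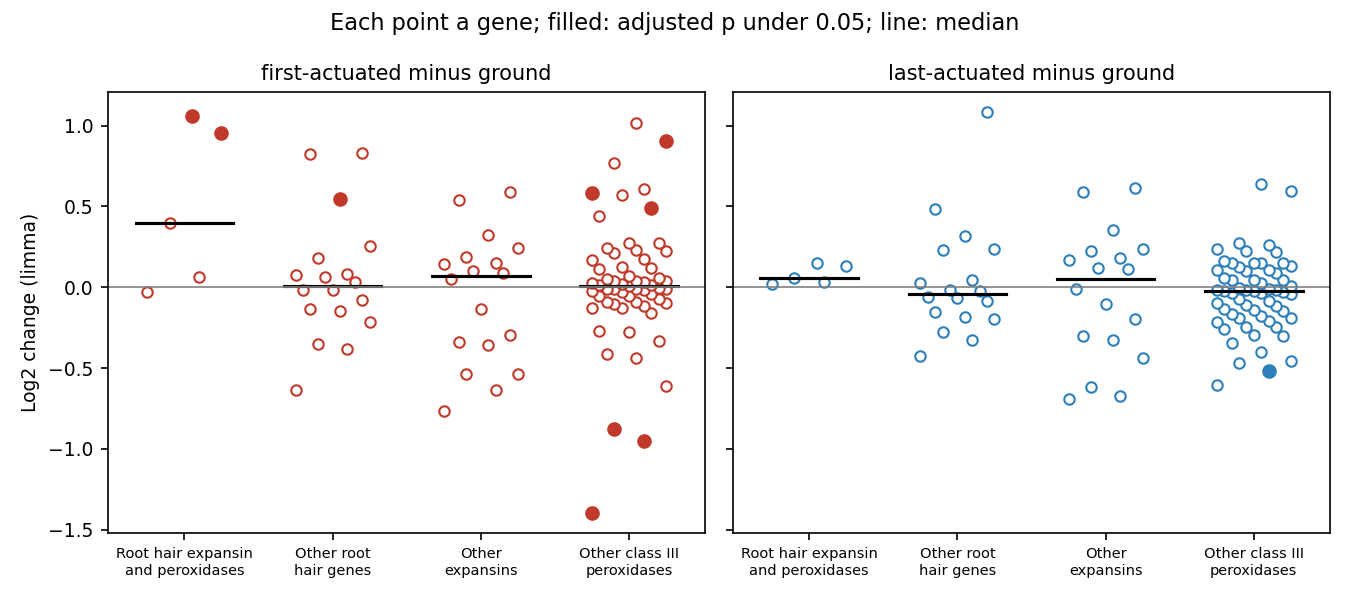
Log2 change against the ground (vertical axis, limma) of each measured gene in first-actuated (left) and last-actuated roots (right), for the 5 root hair expansin and peroxidase genes, 18 other root hair genes, 18 other expansins and 60 other class III peroxidases. Lines are medians and filled points have an adjusted p under 0.05, among them EXPA18 at 0.96 and AT4G26010 at 1.06 in the left panel and none of the 5 in the right one.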

How the data were processed

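The authors hybridised whole-root RNA, labelled with biotin, to 1-colour AraGene 1.0 ST arrays, per the labels. The deposited values are log2 expression values. Tools named per the submitters' processing notes are oligo, RMA, limma and R 4.0.0, with TAIR10 as genome build. RMA as usually run corrects background and scales arrays by quantiles, so values are relative to the arrays as a whole. They lie between 0.0515 and 13.8, and the number of arrays limits the precision.

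Of 38408 probe sets, 16722 name 1 gene, 759 several and 20927 none. The former gave 16548 genes, of which 16505 matched the RefSeq table (TAIR10.1, used for names and chromosomes only). Each measured member had 1 probe set. Equal values on several arrays occurred in 2 members. EXPA18 was at 4.4881 in ground replicate 2 and last-actuated replicate 3, and AT1G30870 at 2.2727 in ground replicate 3 and last-actuated replicate 1. For the 148 genes with several, the brightest was used. Of the probe sets naming several genes, 0 name a member.

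limma 3.58.1 in R 4.3.3 fitted the 3 tubes together (6 residual and 3.89 prior degrees of freedom), with Benjamini-Hochberg adjustment over all genes. Members, lists and tests were chosen with earlier results of these data known. Named genes are all members, the called genes of each list or, where none was called, the one with the smallest p over a list or group, and the 3 nearest profiles of called members. TRY, RCA and AT5G24070 were named after their values were seen. On simulated first-actuated against ground data for 16548 genes, the fit recovered 66.0% of 100 genes changed by 1 in log2 and 11.0% of 100 changed by 0.5, with 2 false calls. The changed genes were drawn at or above the lower quartile of gene means, the noise was normal and no other gene changed. The data gave 776 calls, so the threshold differed, and these rates are no measure of power there. They do not cover genes as dim as AT1G34510. Same-numbered replicates deviated together at correlations of -0.106 to 0.0697, so the numbers were not taken to pair samples. Alternatives were other normalizations, filters, moderation, array weights, the replicate block, other probe set rules, fits to 2 tubes and fits without each array. Figures used Python 3.11.15, matplotlib 3.10.9 and pandas 2.3.3.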

Additional observations from a re-analysis of the deposited data

Results flagged for a closer look

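Between the flight tubes, 3 results differed by limma's test of the difference itself. That test asks whether the change from the ground was the same in both. The 3 were 2 of the 5 measured root hair expansin and peroxidase genes and 1 of 60 other class III peroxidase genes. Of 18 other root hair genes 0 were called, and of 18 other expansin genes 0. Beside these, 2.24% of all genes were called in this comparison. EXPA18 had a last-actuated minus first-actuated log2 difference of -0.90, with changes from the ground of 0.96 and 0.059. AT4G26010 had a difference of -0.91, with changes of 1.06 and 0.15. AT1G49570, a peroxidase gene outside the root hair set, had a difference of 1.36, with changes of -1.40 and -0.038. Of the 9 fits without 1 array, the call stood in 1 for EXPA18, 4 for AT4G26010 and 9 for AT1G49570. The cause of these differences was not tested.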

How the results depend on the processing

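The rise of AT4G26010 in first-actuated roots was called under all 11 other settings and without each array, with log2 changes of 0.93 to 1.23. Counts over the 5 genes of first-actuated against ground were 2, and 1 with only the 2 tubes fitted or, at the lowest, without single arrays (1 to 2). Calls over all genes there went from 776 to 419 with 2 tubes fitted, and to 384 to 1253 without single arrays. The first-actuated calls of other genes that ended without 1 array, given above, stand beside the same totals. Between flight tubes the count of 2 became 1 with the replicate block, with all probe sets tested and with only the 2 tubes fitted, and 0 to 2 without single arrays. Calls over all genes there went from 371 to 303 with the block, 414 with 2 tubes and 100 to 495 without single arrays. With all probe sets tested, 596 of 38408 were called. Over the 3 tubes the count of 2 became 1 with all probe sets tested and 0 to 2 without single arrays. Calls over all genes there went from 737 to 327 to 1216 without single arrays. The 0 genes called in last-actuated against ground roots stayed 0 under every setting run, where calls over all genes ran from 28 to 508.

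The root hair list's count of 1 in first-actuated roots became 0 with cyclic loess, the replicate block, all probe sets tested or 2 tubes fitted, 2 with genes above the median, and 0 to 1 without single arrays. Calls over all genes went from 776 to 871 with cyclic loess, 700 with the block and 419 with 2 tubes. They went to 998 with genes above the median, a filter that left fewer genes to test, and 1306 of 38408 probe sets were called when all were tested. Against the ground in last-actuated roots, 0 became 1 with genes above the median and 0 to 1 without single arrays. Calls over all genes there went from 151 to 255 with that filter, and to 53 to 508 without single arrays. Between flight tubes 0 became 1 with cyclic loess, either filter, array weights, the replicate block or 2 tubes fitted, and 0 to 1 without single arrays. Calls over all genes there went from 371 to 464 with cyclic loess, 423 and 498 with the filters, and 597 with array weights. With the block they were 303 and with 2 tubes 414. The replicate block changed no other call of these counts, and the cause of these shifts was not tested.

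Uncalled changes near 0 turned sign. AT1G30870 in last-actuated against ground roots was -0.0010 with cyclic loess and -0.015 with array weights, and -0.24 to 0.23 without single arrays. Without single arrays, EXPA18 there ran from -0.054 to 0.20 and AT3G49960 from -0.066 to 0.10. AT3G49960 ran from -0.14 to 0.18 in first-actuated against ground roots and from -0.14 to 0.18 between flight tubes, where AT1G34510 ran from -0.018 to 0.13. Signal limits AT1G34510, whose level lies below the lower quartile of gene means, and which both filters on low values removed.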
